A study of Mus musculus with 16 samples.

Results

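Hepatocyte messages carried by heavy polysomes were compared with those on monosomes in mice fed diethoxycarbonyl-dihydrocollidine (DDC), a porphyrinogenic compound that injures hepatocytes and bile ducts. The comparison uses 4 of the 16 libraries of the study: 2 monosome and 2 heavy polysome libraries, chosen by their DDC diet and gradient fraction. Of 48158 genes in the table, 9890 reached 1 FPKM (fragments per kilobase of transcript, scaled to the mapped fragments of each library) in at least 2 of these 4 libraries, and 9885 of them were tested.

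The study used hepatocytes of FVB mice, an inbred strain, isolated with cycloheximide, which holds ribosomes on messages. Mice ate normal chow or DDC for 4 weeks. Sequenced was polyadenylated RNA, either of whole cytoplasm or of a fraction cut from sucrose gradients. Monosomes carry 1 ribosome, light polysomes were taken as 2 to 4 and heavy polysomes as more than 5. Each of the 8 groups of diet and fraction held 2 libraries. The DDC fractions came from preparations named B and C, so a monosome and a heavy polysome library of 1 number share a preparation. The labels name no transgene or further treatment, and do not say whether a preparation was 1 animal or a pool. The p-values hence rest on the spread of these libraries alone, and that spread may be technical.

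Messages loaded with many ribosomes sediment deep in a sucrose gradient, while messages with a single ribosome, and RNA particles of similar weight, stay in the 80S region. Position depends on how often ribosomes initiate, how fast they elongate and how long the coding sequence is, since a short reading frame holds few ribosomes. Short reading frames upstream of the main start, retention of RNA in other particles and translation inside mitochondria also place RNA away from heavy cytosolic polysomes. In liver the most abundant messages encode plasma proteins and mitochondrial and detoxifying enzymes.

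In the 4 libraries 1 FPKM stood for 16.4 to 31.6 fragments per kilobase, read from the step between the lowest values, so that levels near 1 FPKM rest on few fragments. Summed FPKM was 611453 and 665906 in the monosome libraries B and C and 1089500 and 855954 in the heavy polysome libraries. A total that differs this much makes every difference depend on the scaling: with library totals made equal, the median over all genes moved from 0.11 to -0.36, a shift to which values under equal totals below should be read. Of the hepatocyte markers, Alb, Apoa1, Serpina1b and Ahsg were listed at 0 in all 4 libraries. Abundant messages listed at 0 were taken as missing estimates and not tested, and the remaining 8 hepatocyte markers summed to 17710 and 22580 FPKM on monosomes and 55090 and 34310 on heavy polysomes. Levels are given in the order of preparations B and C, differences are heavy polysome minus monosome on the log2(FPKM + 1) scale with the standard error (SE) of the model, and each group has n = 2.

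By limma with Benjamini-Hochberg adjustment 3869 of 9885 genes (39.1%) differed between heavy polysomes and monosomes at an adjusted p under 0.05. Of these, 2211 (22.4%) were higher on heavy polysomes and 1658 (16.8%) were lower. With equal totals the split was 1010 higher and 2943 lower, so that the balance between the directions was set by the scaling. All 3869 called genes differed in the same direction in both preparations, as did 7634 of all 9885 genes. A gene that passes the test can hardly change direction between the preparations, so this count is no separate support. Both heavy polysome libraries lay outside the range of the monosome libraries for 6435 genes (65.1%). Light polysomes lay between the other fractions for 3091 of the called genes, and the share over all genes is not given here. Across genes the differences of preparations B and C had a Pearson correlation of 0.753 (9885 genes, which are not independent replicates). At the filter, the 246 genes just below 1 FPKM had a median of -0.29 and the 234 just above it -0.15. There were 216 genes that passed it only through heavy polysomes and 617 only through monosomes, and these had to lean in that direction.

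**Figure D1:**
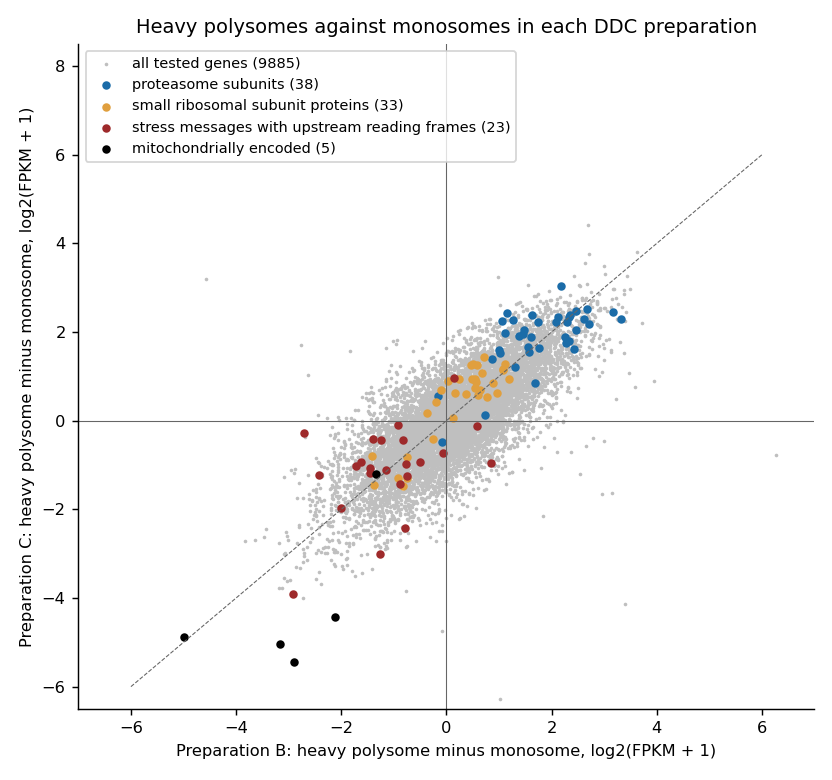
Heavy polysome minus monosome difference of each gene in preparation B (horizontal) and preparation C (vertical), in log2(FPKM + 1); the dashed line marks equal differences. The 38 proteasome subunits lie mostly at the upper right and the 5 tested mitochondrially encoded messages at the lower left.

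The 10 largest rises among genes of at least 100 FPKM held genes of detoxification, protein folding, the cytoskeleton and macrophages. Gsta2 (chromosome 9, 78331018 to 78355788), a glutathione transferase, was at 92.1 and 42.5 FPKM on monosomes and 1006 and 414 on heavy polysomes, a difference of 3.34 ± 0.71 SE (adjusted p = 0.0031). Its relative Gsta1 rose by 3.08; these copies are nearly identical, so the share of reads given to each is uncertain. Mrps28 (chromosome 3, 8802146 to 8923918), a protein of the mitochondrial ribosome, stood at 13.9 and 16.6 against 166 and 137 FPKM (3.23 ± 0.22 SE, adjusted p = 2.16e-05). Ppia, the abundant cytosolic prolyl isomerase cyclophilin A, went from 225 and 269 to 2012 and 1812 FPKM (2.95 ± 0.24 SE, adjusted p = 2.16e-05), and its many pseudogenes can share its reads. The myosin light chain gene Myl6 rose by 2.96. In each of these genes the lower heavy polysome library exceeded the higher monosome library.

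The other 5 were Lyz2, Ctss, C1qb, Fcna and C1qa, genes known from macrophages, and 4 of these stand on the list of 20 Kupffer cell and macrophage markers. Lyz2, the macrophage lysozyme, measured 241 and 121 FPKM on monosomes and 1932 and 1377 on heavy polysomes (3.25 ± 0.39 SE, adjusted p = 0.000106). C1qb, a chain of complement C1q, measured 101 and 136 against 1062 and 1057 FPKM (3.16 ± 0.35 SE, adjusted p = 5.8e-05). Of the whole list of 20 markers, 15 were higher, 0 were lower and the median was 1.90, beside 0.11 for all genes. Their summed level was 1509 and 1108 FPKM on monosomes, 2245 and 3106 on light polysomes and 8096 and 6092 on heavy polysomes. Clec4f and Timd4, which mark resident Kupffer cells, were among the 15. With equal totals 10 were higher and 1 lower, and leaving out 1 library gave 11 to 13 higher. Macrophage RNA was present in every fraction. The fractions compared came from the same preparations, B and C, so their difference does not measure the number of macrophages.

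Markers of other cells are given for comparison. Of 9 ductal markers tested (16 listed) 1 was higher and 2 lower, with sums of 256 and 391 FPKM on monosomes and 556 and 639 on heavy polysomes. Of 17 stellate cell and fibroblast markers tested (20 listed) 0 were higher and 5 lower (306 and 213 against 179 and 198 FPKM), 2 lower without the heavy polysome library B and 3 without C. Among 12 endothelial markers tested (18 listed) Clec4g and Fcgr2b were higher and Bmp2 lower, with sums of 160 and 149 FPKM on monosomes and 293 and 193 on heavy polysomes. By limma 0 of 6 neutrophil and 0 of 5 red blood cell markers were called, with 4 and 0 at an unadjusted p under 0.05, and none of 17 lymphocyte markers reached the filter, with a sum of at most 4.45 FPKM in the 6 fraction libraries. Of the 8 hepatocyte markers tested Apoc3 was higher and Cps1 and Hnf4a were lower. The part that RNA of other cells plays in the gene differences was not tested.

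The proteasome, which degrades ubiquitin-tagged proteins, had the highest median of the 30 gene lists. Of its 38 subunits 35 were higher on heavy polysomes and 0 lower, with a median of 1.89. Psmb6 (chromosome 11, 70525367 to 70527858), a catalytic subunit of the core particle, measured 205 and 205 FPKM on monosomes and 1318 and 1179 on heavy polysomes (2.60 ± 0.21 SE, adjusted p = 2.16e-05). Psma7, a structural subunit of the core, measured 33.6 and 35.2 against 191 and 200.3 FPKM (2.47 ± 0.19 SE, adjusted p = 2.16e-05). The libraries of each fraction lay close together and the fractions far apart in both genes. The 3 that did not pass were Psmd1 (0.20), Psme3 (0.43) and Psme4 (-0.28), singled out after their values were seen. Over all 18 alternatives at least 31 subunits were called higher, and the median was 1.33 or more.

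Protein folding and charging of transfer RNA followed in the same direction. Of 21 chaperonin and heat shock genes 14 were higher and 0 lower (median 1.16), and 7 were higher without the heavy polysome library C. Hspe1, the mitochondrial co-chaperonin, rose by 1.84 and Cct7, a subunit of the cytosolic chaperonin, from 39.2 and 29.4 to 112 and 146 FPKM (1.88). Of 20 aminoacyl-tRNA synthetase genes 13 were higher and 0 lower (median 0.89), 8 without the heavy polysome library C. Hars and Farsa, which charge the transfer RNAs of histidine and phenylalanine, rose by 1.86 and 1.85. Under equal totals 3 chaperone and 4 synthetase genes were called higher, and 1 synthetase gene was lower.

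Chaperones of the endoplasmic reticulum differed little: of 25, 2 were higher and 2 lower, with a median of -0.03. Sec61b, part of the translocation channel, rose from 102 and 129 to 291 and 434 FPKM (1.63) and Selenos by 0.86, while Ssr3, of the translocon-associated complex, was at 67.2 and 118 against 23.4 and 54.3 FPKM (-1.29). The call of Selenos was lost under equal totals, and that of Ssr3 without the monosome library C or the heavy polysome library B. With equal totals 1 gene of this list was higher and 7 were lower, with the preparations as a block 5 and 1, and without the monosome library C 5 and 1.

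Messages of the respiratory chain transcribed in the nucleus were mostly higher on heavy polysomes. Of 39 genes of complexes II to V, 31 were higher and 0 lower (median 1.53), and of 37 genes of complex I, 27 were higher and 2 lower (median 1.16). Atp5h (chromosome 11, 115415689 to 115419962), a subunit of ATP synthase, measured 141 and 149 FPKM on monosomes and 1042 and 664 on heavy polysomes (2.51 ± 0.24 SE, adjusted p = 3.81e-05). Cycs, cytochrome c, measured 15.4 and 14.8 against 96.2 and 79.4 FPKM (2.46 ± 0.24 SE, adjusted p = 3.99e-05). In complex I, Ndufab1 rose by 2.38 and Ndufs4 by 2.30. Ndufc1 went the other way, at 104 and 60.8 against 34.0 and 46.5 FPKM (-0.98), a call that was lost without the monosome or the heavy polysome library B. Leaving out 1 library left 0 or 1 complex I gene lower. Of 78 mitochondrial ribosomal protein genes 54 were higher and 5 lower (median 1.15), with Mrpl16 at 2.32 and Mrpl18 at -1.85. With equal totals complexes II to V had 23 higher and 3 lower, complex I 19 and 3, and the mitochondrial ribosome 36 and 12.

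The messages transcribed inside mitochondria, which mitochondrial ribosomes translate, stood at the other end. All 5 that could be tested of 13 were lower on heavy polysomes, with a median of -4.10. mt-Nd2 (chromosome M, 3914 to 4951), a complex I subunit, measured 5659 and 13570 FPKM on monosomes, 1227 and 1750 on light polysomes and 631 and 412 on heavy polysomes (-4.10 ± 0.40 SE, adjusted p = 3.99e-05). mt-Nd6 fell by 4.94, mt-Nd5 by 4.17 and mt-Cytb, the complex III subunit, by 3.28. The mitochondrial ribosomal RNAs mt-Rnr1 and mt-Rnr2 fell by 3.33 and 3.45. mt-Nd6 is read from the strand opposite to its neighbours, and whether the counting used strand is not given in the sources used here. The list is incomplete: mt-Nd1, mt-Co1 and mt-Nd4 were listed at 0 on both monosome libraries and at 551 to 3749 FPKM on heavy polysomes, a pair of zeros that was taken as missing, and 5 others did not pass the filter.

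Metabolic and detoxifying enzymes of hepatocytes were divided. Of 32 genes of fatty acid oxidation and ketone formation 18 were higher and 1 lower (median 1.13). Etfb (chromosome 7, 43444083 to 43457800), which passes electrons from acyl-CoA dehydrogenases to the respiratory chain, measured 235 and 251 FPKM on monosomes and 1760 and 1423 on heavy polysomes (2.70 ± 0.22 SE, adjusted p = 2.16e-05). Acads, the short-chain acyl-CoA dehydrogenase, rose by 2.52, while Cpt1a, which admits long-chain fatty acids to mitochondria, was at 5.91 and 12.7 against 2.79 and 4.16 FPKM (-1.14). The call of Cpt1a was lost without the monosome library C or the heavy polysome library B. Of 41 genes of the urea cycle and amino acid breakdown 21 were higher and 2 lower (median 1.06), and 12 were higher without the monosome library C. With equal totals 9 were higher and 3 lower, and with quantile normalization 8 and 3. Haao, of tryptophan breakdown, rose by 2.34 and Sdsl, a serine dehydratase, by 1.96. Slc25a15, the ornithine carrier, had a difference of -0.91, called lower but not without the monosome library C or the heavy polysome library B. Cps1, the first enzyme of the urea cycle, was at 229 and 75.5 against 58.5 and 44.2 FPKM (-1.36 ± 0.40 SE, adjusted p = 0.0176), a call that was lost without the monosome library B or the heavy polysome library C.

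Genes of the oxidative stress factor NRF2 and of glutathione metabolism had a median of 1.38, with 21 of 39 higher and 2 lower, and 13 and 4 with equal totals. Txn1 (chromosome 4, 57943373 to 57956411), thioredoxin, measured 62.7 and 76.6 FPKM on monosomes and 407 and 417 on heavy polysomes (2.55 ± 0.25 SE, adjusted p = 4.06e-05). Gsta4, a glutathione transferase for lipid peroxidation products, rose by 2.32. Abcc2, the canalicular export pump for conjugates, went the other way (48.5 and 60.9 against 7.23 and 8.28 FPKM, -2.66 ± 0.30 SE, adjusted p = 6.8e-05). Most of the Abcc2 signal on monosomes lay on a transcript of 1926 bases, at 40.9 and 52.3 FPKM, against 0 and 2.42 on heavy polysomes, and the 8027-base transcript was at 7.5 and 7.95 against 6.41 and 5.86. Gstm1 was listed at 0 on heavy polysomes beside 9960 and 9363 FPKM on monosomes and was not tested.

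None of 49 cytochrome P450 genes, the oxidases of drugs and steroids, passed the limma test, and 0 had an unadjusted p under 0.05 (median 0.06). With equal totals 3 were lower, and with the preparations as a block 2 were higher. Secreted plasma proteins, the main export of hepatocytes, had a median of 0.36 with 3 of 63 higher and 5 lower, and -0.24 with 0 and 8 under equal totals. Apoc3, of triglyceride-rich lipoproteins, measured 11160 and 13630 FPKM on monosomes and 40640 and 23750 on heavy polysomes (1.33 ± 0.37 SE, adjusted p = 0.0132). Its call was lost with equal totals and without the monosome or the heavy polysome library B. Ttr, the thyroid hormone carrier transthyretin, measured 4657 and 7336 against 12410 and 8473 FPKM and did not pass (adjusted p = 0.101). Apob (chromosome 12, 7977648 to 8016835), the large scaffold protein of lipoproteins, was at 504 and 386 against 115 and 103 FPKM (-2.01 ± 0.26 SE, adjusted p = 0.000144). Its full-length transcript of 13934 bases measured 35.3 and 34.6 FPKM on monosomes and 6.0 and 9.73 on heavy polysomes, so that both it and the shorter form that held most of the signal were lower. Klkb1, plasma prekallikrein, was called lower (-1.65), a call that was lost without the monosome library B or the heavy polysome library C. The count of 5 lower plasma protein genes became 1 without the monosome library B and 3 without the heavy polysome library B. The count of 3 higher became 0 without the heavy polysome library B and 11 without C.

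Acute-phase genes, induced in liver injury, had a median of 0.68 with 1 of 31 higher and 1 lower, and 0 and 3 with equal totals. Lcn2, an iron-scavenging injury marker, and Ly6d, a surface protein of epithelial progenitors, differed more between preparations than between fractions: Lcn2 was at 4246 and 18220 FPKM on monosomes and 9698 and 21920 on heavy polysomes, and Ly6d at 465 and 4192 against 1612 and 7274. In both genes each heavy polysome library exceeded the monosome library of its own preparation, by 1.19 and 0.27 for Lcn2 and 1.79 and 0.79 for Ly6d. The groups overlapped (limma, adjusted p = 0.645 and 0.456). That test did not pair the libraries, so the difference between preparations counted as error and made a call harder. With the preparations as a block neither gene was called either. Serpina3k was called higher by 0.84 and Il1r1, the interleukin-1 receptor, lower (-1.84). Il1r1 lay under 1 FPKM in both heavy polysome libraries, so the filter fixed its direction. The call of Serpina3k was lost in 14 of the 18 alternatives, each of the 4 that leave out a library among them, and that of Il1r1 without the monosome library B or the heavy polysome library C. With the preparations as a block 8 acute-phase genes were higher and 2 lower. Of 31 genes of cholesterol and fatty acid synthesis 2 were higher, Pmvk (2.51) and Fdps (1.74) of the mevalonate pathway, and 1 lower, Elovl6 (-1.27), a fatty acid elongase (median 0.01). With the block 5 were higher and 5 lower, and with equal totals 2 and 7. The call of Elovl6 was lost without the monosome library C or the heavy polysome library B.

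Iron-regulated messages, some of which carry hairpins bound by iron regulatory proteins, were split, with 6 of 22 higher and 5 lower (median -0.10), and 2 and 11 with equal totals. These shares of 27.3% and 22.7% were not far from the 22.4% and 16.8% of all genes. Fth1 and Ftl1, the ferritin chains, were among the most abundant messages. Fth1 was at 10860 and 7520 FPKM on monosomes and 8721 and 4613 on heavy polysomes (adjusted p = 0.294), and Ftl1 at 12640 and 9743 against 12410 and 6614 (adjusted p = 0.559). Neither passed the test, and in both the groups overlapped. With equal totals both were called lower, at -1.11 and -0.89. Urod and Alad, enzymes of the heme pathway that DDC blocks at its last step, rose by 1.67 and 1.40, and Slc11a2, the ferrous iron carrier, was called lower (-1.21). The count of 6 higher became 3 without the monosome library C and 3 without the heavy polysome library B, and that of 5 lower became 2 without the monosome or the heavy polysome library B. Of 24 transcription factors of hepatocyte identity 7 were lower and 1 higher (median 0.11), among them Nr3c1, the glucocorticoid receptor (4.17 and 3.53 against 0.668 and 0.702 FPKM, -1.52), and Rxra, a partner of nuclear receptors (-1.40). Nr3c1 passed the filter only through monosomes, which fixed its direction. Nr1h4, the bile acid receptor, was the 1 called higher (0.68), a call that was lost in 10 of the 18 alternatives. Without 1 library the count of 7 lower fell to 3 (monosome B or C), 2 (heavy polysome B) or 4 (heavy polysome C).

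**Figure D2:**
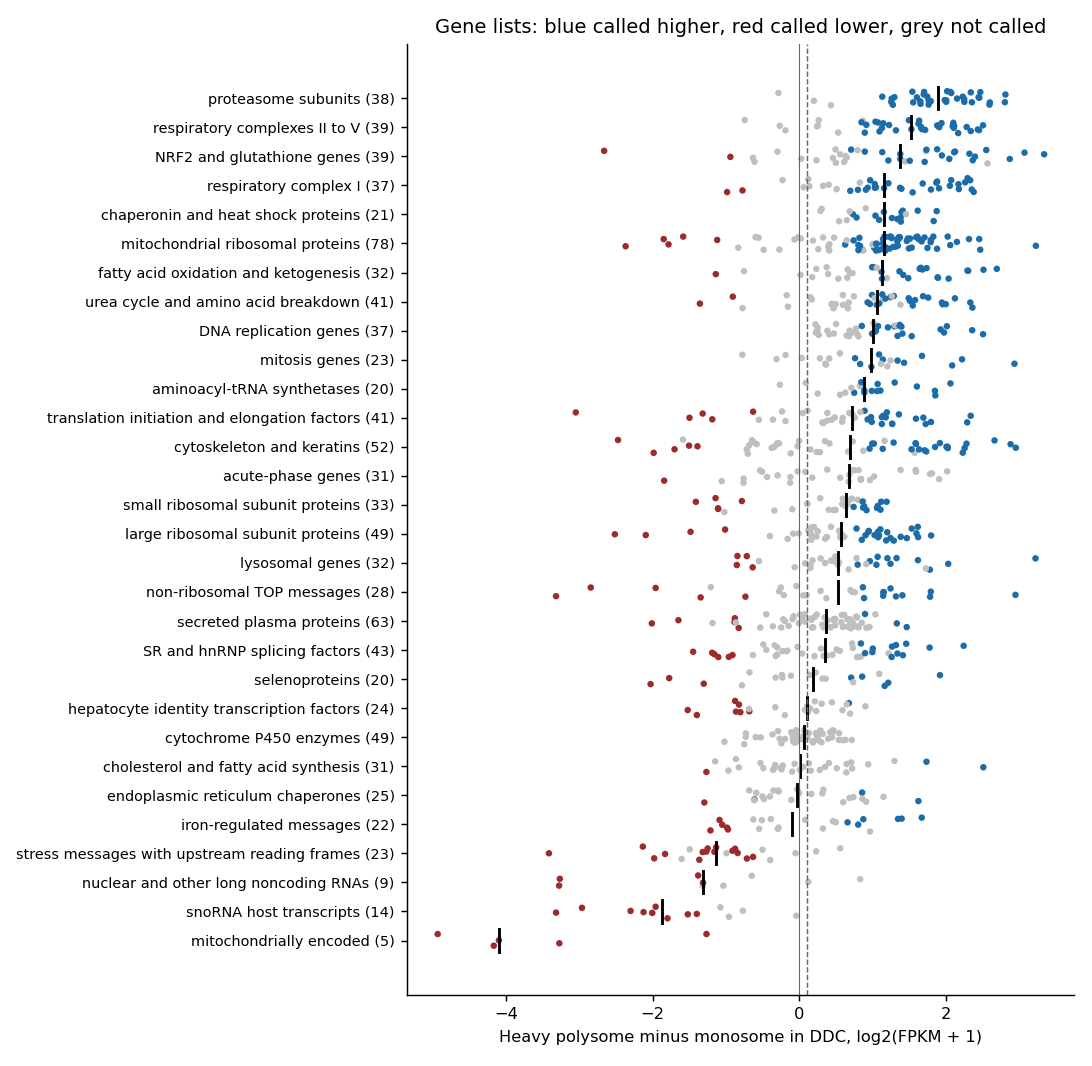
Heavy polysome minus monosome difference in DDC, in log2(FPKM + 1), of each tested member of the 30 gene lists, with the number tested; black bars are list medians and the dashed line is the median of all genes (0.11). The lists run from the mitochondrially encoded messages (median -4.10) to the proteasome (1.89).

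Messages of the cytosolic ribosome lay on both sides. Of 33 small subunit protein genes 10 were higher and 5 lower (median 0.63), and of 49 large subunit genes 21 were higher and 4 lower (median 0.57). With equal totals the medians were 0.04 and -0.03, with 0 higher and 7 lower in the small subunit and 10 higher and 7 lower in the large, and quantile normalization gave 0 and 9 and 6 and 9. The direction of these families therefore depended on the scaling. Without the monosome library C 1 small subunit gene and 13 large subunit genes were higher, and without the heavy polysome library B 3 small subunit genes were higher. The 5 small subunit genes lower became 3 without the monosome library B and 1 without the heavy polysome library C. Light polysomes held less of these messages than monosomes did (medians of -0.41 and -0.45 for light minus monosome), and heavy polysomes more than light (1.15 and 1.03).

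Rps7 was at 271 and 243 FPKM on monosomes, 95.2 and 219.9 on light and 574 and 543 on heavy polysomes (1.12 ± 0.31 SE, adjusted p = 0.0121), and its call was lost with equal totals, without the monosome library C and without the heavy polysome library B. Rps13, also of the small subunit, rose by 1.11, a call lost with equal totals. In the large subunit Rpl27 rose by 1.47 and Rpl36al by 1.80. Messages of very small proteins were among those called lower. Rpl41 (chromosome 10, 128548114 to 128549305), whose product has 25 residues, measured 3807 and 4277 FPKM on monosomes and 1006 and 493 on heavy polysomes (-2.52 ± 0.39 SE, adjusted p = 0.000432). Rps29, also a very small protein, was called lower (-1.41), at -2.01 with equal totals. Pseudogene copies of ribosomal protein genes can share their reads. Of 193 processed pseudogenes tested, of any parent gene, 75 were higher and 11 lower, and copies of ribosomal protein genes were not counted apart.

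Other messages with a terminal oligopyrimidine (TOP) tract, the element through which mTOR controls the translation machinery, had a median of 0.54 with 11 of 28 higher and 5 lower. The median was -0.06 with equal totals, with 4 higher and 8 lower. Without the monosome library C 6 were higher, and without the heavy polysome library C 7. Btf3, a ribosome-associated factor, rose by 1.80. Eef1a1 and Eef2, the elongation factors, did not pass: Eef1a1 was at 2712 and 1184 FPKM against 2017 and 2664 and Eef2 at 921 and 492 against 643 and 498 (adjusted p = 0.439 and 0.538), with overlapping groups. Pabpc1 (chromosome 15, 36595661 to 36609668), the poly(A)-binding protein whose message it also binds, was at 67.4 and 120.2 against 9.50 and 14.3 FPKM (-2.85 ± 0.36 SE, adjusted p = 0.000134). Of 41 initiation and elongation factor genes 18 were higher and 5 lower (median 0.73), 3 lower without the heavy polysome library B. With equal totals 9 were higher and 7 lower (median 0.13). Eif4a1, the helicase of the cap-binding complex, rose by 1.70 and Eif3i by 1.59, while Eif4ebp2, a repressor of cap binding, fell from 16.6 and 35 to 1.57 and 2.61 FPKM (-3.05).

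Among cell division messages that could be tested, those called were higher on heavy polysomes. Of 23 mitosis genes tested (39 listed) 11 were higher and 0 lower, and of 37 replication genes 18 were higher and 0 lower (11 without the monosome library C), with medians of 0.99 and 1.01. With equal totals 8 mitosis genes were higher and 1 lower, and 6 replication genes higher and 0 lower. Pttg1, securin, measured 4.34 and 7.97 FPKM against 56.1 and 48.3 (2.94 ± 0.34 SE, adjusted p = 7.94e-05) and Cdk1, the mitotic kinase, 7.51 and 7.74 against 32.8 and 38.9 (2.09 ± 0.33 SE, adjusted p = 0.000463). Gins2 and Pcna, of the replication fork, rose by 2.51 and 1.93. A list with low levels leans towards the members its filter let through, and 16 mitosis genes, Mki67 among them, did not reach it.

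Of 52 cytoskeleton and keratin genes 22 were higher and 5 lower (median 0.70), 8 lower with the preparations as a block. With equal totals 11 were higher and 13 lower (median 0.19), beside 1010 and 2943 of all genes (median -0.36). The counts of the list turned, but its median lay above that of all genes under both scalings. Arpc3, of the actin-branching complex, rose by 2.67, and Actn4, an actin crosslinker, was called lower (-1.99). Krt8, a keratin of hepatocytes, was at 682 and 835 FPKM against 1608 and 3239 (1.59 ± 0.41 SE, adjusted p = 0.00841). Its call was lost with equal totals, without the monosome library B and without the heavy polysome library C. Actb was at 600.4 and 596 against 495 and 272 FPKM and did not pass (adjusted p = 0.108), but was called lower with equal totals (-1.30), with the preparations as a block and without the heavy polysome library B. Of 43 splicing factor genes 12 were higher (27.9%) and 6 lower (14.0%), near the shares of all genes (22.4% and 16.8%). The lowest p among those higher was that of Hnrnpab (1.32) and Hnrnpa2b1 (2.25), and among those lower that of Rbfox2 (-1.16). Rbfox2 reached the filter through its monosome libraries alone, so its direction was fixed. With equal totals 5 splicing factor genes were higher and 9 lower. Of 32 lysosomal genes 11 were higher and 4 lower (median 0.54), and with equal totals 4 and 5 (median -0.04). Ctss and Cd68, which rose by 3.23 and 2.04, are on the macrophage list as well, and Lipa, the acid lipase, was called lower (-0.72), a call lost without the monosome library C or either heavy polysome library. The count of 11 became 7 without the monosome library C and 5 without the heavy polysome library B, and that of 4 lower became 1 when any of the 4 libraries was left out. Of 20 selenoprotein genes, whose messages recode a stop codon, 5 were higher (Selenok by 1.92, Msrb1 by 1.22) and 3 lower (Selenot at -1.77), against 2 and 7 with equal totals. Their shares of 25% and 15% also lay near those of all genes.

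The fit to the 4 compared libraries alone, which has the fewest degrees of freedom, called fewer members. It called 33 proteasome genes higher, 21 of complexes II to V, 17 of complex I, 10 of the urea cycle and amino acid breakdown, 10 of replication, 7 chaperonin and heat shock genes, 6 synthetases and 12 initiation and elongation factors. Of the small ribosomal subunit it called 0 genes, with 9 at an unadjusted p under 0.05, of the large subunit 7 higher and 2 lower, and of other TOP messages 5 and 4. It called 6 splicing factors higher and 3 lower, 5 lysosomal genes higher, 1 selenoprotein higher and 2 lower, 2 iron-regulated messages higher and 1 lower, 1 plasma protein gene higher and 2 lower, and 2 hepatocyte transcription factors lower. Stress messages had 10 lower and 0 higher.

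Stress messages known for upstream reading frames were mostly lower on heavy polysomes. Of 23 tested, 15 were lower on heavy polysomes and 0 higher, with a median of -1.13 beside 0.11 for all genes, and with equal totals 19 were lower. The count was 8 without the monosome library C and 9 without the heavy polysome library B. Atf4 (chromosome 15, 80255184 to 80257541), the transcription factor of the integrated stress response, measured 92.7 and 70.7 FPKM on monosomes, 50.6 and 76.2 on light and 22.4 and 17.4 on heavy polysomes (-1.98 ± 0.26 SE, adjusted p = 0.000174). Tmem183a (chromosome 1, 134346097 to 134361979), a membrane protein, measured 45.7 and 70.9 FPKM, 22.6 and 22.5 and 5.15 and 3.79 (-3.42 ± 0.33 SE, adjusted p = 3.81e-05). In Atf4 the light polysome and monosome libraries overlapped and the heavy polysome libraries lay below both, while in Tmem183a the fractions did not overlap. Odc1, which starts polyamine synthesis, fell by 1.83, Ppp1r15b, a phosphatase subunit that reverses the stress signal, by 1.27, and Mdm2, the p53 ligase, by 1.25. Cebpa (0.23) and Cebpb (0.56) had the 2 positive differences of the list and did not pass.

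The first upstream and the main start of these 5 messages are shown because the list was drawn up for reading frames of this kind. Sequences are from GENCODE M21 transcripts on GRCm38, each for the coding transcript with the most FPKM of its gene, 30 bases long, 5′ to 3′, with the start triplet in capitals.
Atf4 upstream start: gcacttttctctcATGgggcctttaggacg
Atf4 main start: aaagccccacaacATGaccgagatgagctt
Ppp1r15b upstream start: gggggttcggcgaATGacgtgaggcgccgc
Ppp1r15b main start: ccaaggaaaggagATGgagacaggaacgca
Mdm2 upstream start: ctctggagcgaccATGgtcgctcaggcccc
Mdm2 main start: ggcctccaggccaATGtgcaataccaacat
Odc1 upstream start: ctggtgcgtctccATGacgacgtgctcggc
Odc1 main start: cacatcgagaaccATGagcagctttactaa
Tmem183a upstream start: cctcggtgcggggATGgccgcagagccggg
Tmem183a main start: tcggggccgagacATGgcccggggctccgg

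The Atf4 leader of 594 bases, on the plus strand of chromosome 15, holds 3 upstream ATG triplets, and the frame of the first runs 36 codons and closes before the main start. The first frame of Ppp1r15b (chromosome 1, 133131143 to 133139783, 3 upstream triplets) has 2 codons, that of Odc1 (chromosome 12, 17544794 to 17551505, 2 triplets) 8 and that of Mdm2 (chromosome 10, 117688875 to 117710758, 2 triplets) 14, all closed before the main start. The single upstream frame of Tmem183a, in a leader of 109 bases, runs 28 codons and past the main start. Of the 19 listed messages with an annotated leader of at least 30 bases, 16 held 1 to 11 upstream triplets, and 12 of these 16 were lower on heavy polysomes.

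The same count was taken over all protein-coding genes tested with such a leader, 8402 genes, of which 47.8% hold at least 1 upstream ATG on the sense strand, any frame and overlaps counted. Messages with none had a median difference of 0.29 (4387 genes), with 1 of 0.02, with 2 of -0.13, with 3 of -0.25, with 4 of -0.30 and with 5 or more of -0.31 (409 genes). The share called lower went from 11.9% with none to 29.6% with 5 or more, and the share called higher from 27.8% to 11%. Spearman's rho across these genes was -0.21, as a description. Leader length moves with the count, and within leaders of 30 to under 100 bases the medians were 0.40 without and 0.16 with an upstream triplet, within 100 to under 200 bases 0.26 and -0.04, and within 200 to under 400 bases 0.08 and -0.14. In leaders of 400 bases and over they were -0.35 and -0.31, so that the order was not seen there. Within each of 5 bands of mean FPKM messages with an upstream triplet had the lower median, from -0.12 against -0.39 below 3 FPKM to 0.91 against 0.72 above 100. A matching triplet in an annotated leader is not a measured start of translation.

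Coding length also moved with the difference. Reading frames of 100 to under 200 residues had a median of 0.36 with 31.8% called higher and 14.6% lower, those of 400 to under 800 residues 0.06, and those of 800 to under 1600 residues -0.12 with 7.25% higher and 19.5% lower. Below 100 residues the median was -0.05 (374 genes). Of 183 genes of 1600 residues and over 3 were higher (Snrnp200, Pcnx3 and Pdcd11) and 50 lower. Fn1, fibronectin, had 364 and 308 FPKM on monosomes and 58.4 and 90.4 on heavy polysomes (-2.19, adjusted p = 0.000398). Sptbn1, a membrane spectrin, had the lowest difference of these 183 (5.03 and 5.22 against 0.119 and 0.185 FPKM, -2.41, adjusted p = 3.99e-05), and Hc, complement C5, was at -2.14. These 3 were chosen after their values were seen. Sptbn1 and others of the 50 passed the filter only through monosomes, which fixed their direction. Spearman's rho of length and difference across 9409 genes was -0.16 in DDC and -0.05 in chow. For light polysomes minus monosomes in DDC it was -0.42 and for heavy minus light 0.09. Long messages also had low levels, and rho of mean FPKM and difference was 0.35. Among genes over 100 FPKM the median was 0.85 below 200 residues (385 genes), 1.1 from 200 to under 400 (346 genes), 0.46 from 400 to under 800 and -0.09 from 800 (34 genes). The part of level, fragmentation and length in this relation was not tested.

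**Figure D3:**
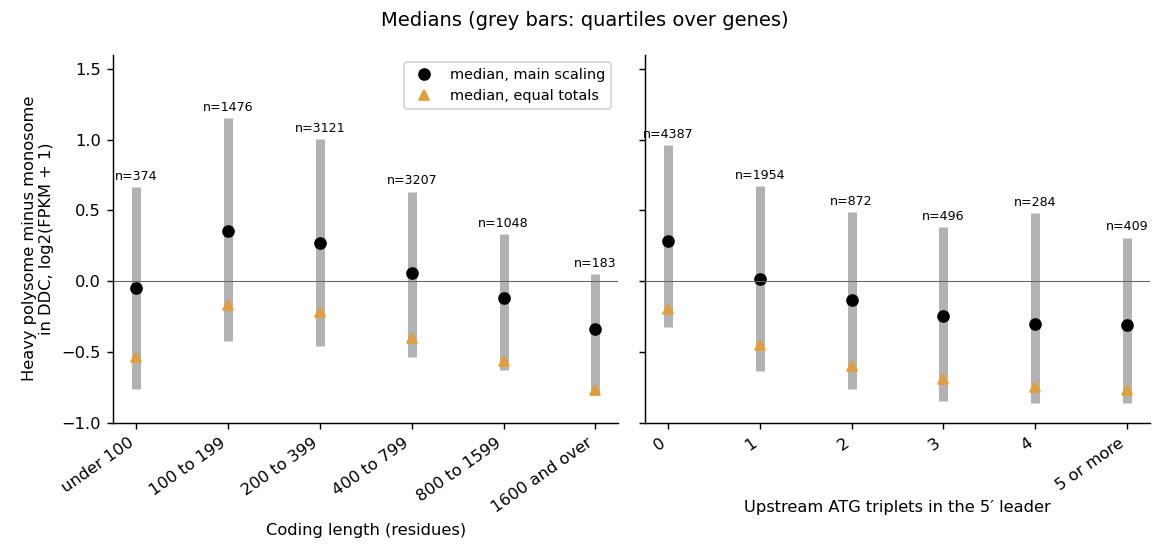
Median heavy polysome minus monosome difference in DDC, in log2(FPKM + 1), of protein-coding genes by coding length (left) and by the number of upstream ATG triplets (right); grey bars span the quartiles over genes, circles are as deposited and triangles with equal totals. The medians descend from 0.36 at 100 to under 200 residues to -0.34 at 1600 and over, and from 0.29 with no upstream triplet to -0.31 with 5 or more.

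Long intergenic noncoding RNAs (lincRNA) took a smaller share of heavy polysome libraries than of monosome libraries. Transcripts annotated so made up 0.996% and 1.18% of monosome FPKM, 0.563% and 0.550% on light and 0.0826% and 0.0659% on heavy polysomes. Not every noncoding class did so: transcripts annotated as miRNA made up 0.465% and 0.156% on monosomes and 0.935% and 0.251% on heavy polysomes, and processed pseudogenes 0.308% and 0.280% against 0.327% and 0.405%. Of 60 lincRNA genes tested 27 were lower and 1 higher (median -1.22), and of 70 antisense genes 18 were lower and 0 higher, although reads of an antisense gene and its partner may not have been told apart. Of 14 host transcripts of small nucleolar RNAs 9 were lower and 0 higher (median -1.88), 5 without the monosome library B. Gas5 (chromosome 1, 161034422 to 161038539), such a host with a TOP tract, measured 88.2 and 87.3 FPKM on monosomes, 17.2 and 28.2 on light and 9.55 and 6.5 on heavy polysomes (-3.32 ± 0.28 SE, adjusted p = 2.56e-05). Snhg8 fell from 54.6 and 64.1 to 5.14 and 8.66 FPKM (-2.97). Neat1, the scaffold of nuclear paraspeckles, was at 28.9 and 10.9 against 1.11 and 0.818 FPKM (-3.27 ± 0.45 SE, adjusted p = 0.000217) and H19, an imprinted noncoding RNA, at 17 and 32.5 against 1.29 and 1.79 (-3.28). Of 9 listed long noncoding RNAs tested (27 listed) 4 were lower and 0 higher. Malat1 was low, at 2.28 and 2.31 against 0.485 and 0.184 FPKM, and did not pass (adjusted p = 0.0715), although the groups did not overlap. Malat1 reached the filter only through monosomes, which fixed that order.

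The remaining largest falls were 3 coding genes and Tmem134. Bola3, a factor of iron-sulfur cluster assembly in mitochondria, was at 241 and 252 FPKM on monosomes and 45.4 and 18.8 on heavy polysomes (-3.03 ± 0.34 SE, adjusted p = 7.01e-05). Csnk1g2, a casein kinase, was at 134 and 172 against 19.3 and 17.9 (-2.96) and Zfp36, which destabilizes inflammatory messages, at 178 and 110.4 against 15.6 and 19.5 (-2.94). In each the heavy polysome libraries lay far below both monosome libraries. Tmem134 fell by 3.02, and its signal lay on transcripts annotated as processed transcripts or retained introns.

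**Figure D4:**
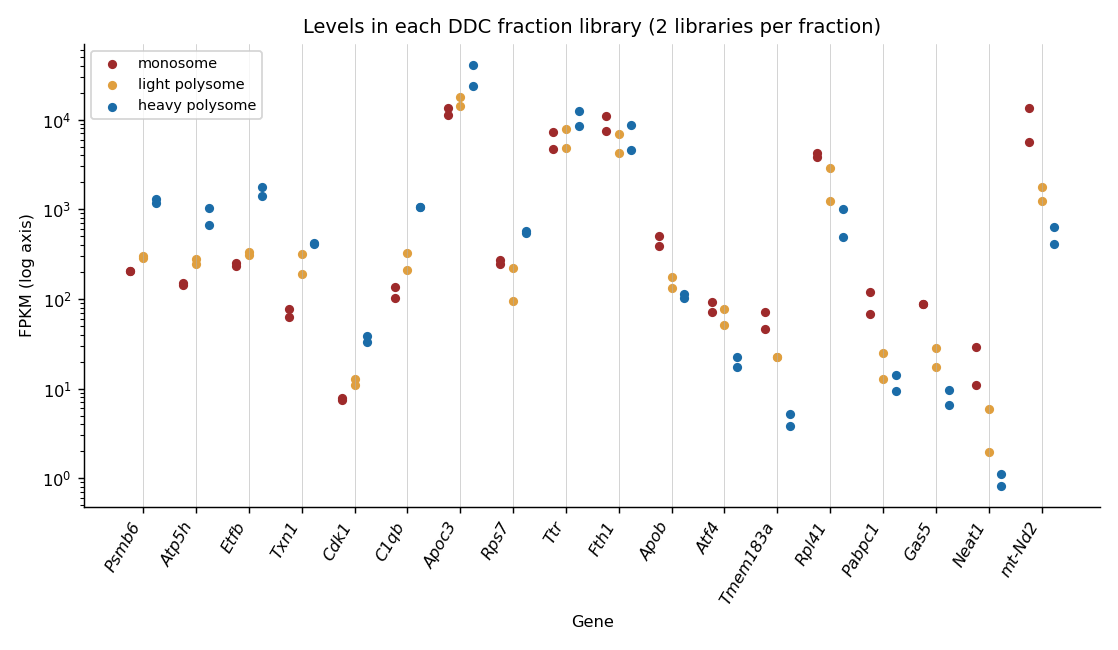
FPKM on a log axis of 18 genes in the 6 DDC fraction libraries, 2 points per fraction. Psmb6, Atp5h, Etfb and C1qb climb from monosomes to heavy polysomes, the fractions of Fth1 overlap, and Atf4, Tmem183a, Gas5 and mt-Nd2 descend.

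The same fractions of chow-fed mice were used to ask whether the placement differed with the diet. In chow 4723 of 9869 genes (47.9%) were called, 2731 higher (27.7%) and 1992 lower (20.2%), and 2728 genes were called in both diets in the same direction and 38 in opposite directions. The difference between the diets was called for 251 of 9867 genes (2.54%), 121 with a more positive heavy polysome difference in DDC (1.23%) and 130 with a more negative one (1.32%). With the 8 libraries of these fractions alone, with library weights, or without the chow monosome library 2, 0 genes were called by limma in either direction, with 1333, 1442 and 1700 genes at an unadjusted p under 0.05 against 2073 in the fit to all 16 libraries. The pooled spread includes the cytoplasm libraries, whose replicates lay closer together than those of monosomes and heavy polysomes. Without the cytoplasm libraries 0 genes were called in a fit without a block, which was chosen after seeing the data. The same fraction libraries with the preparations as a block gave 90 more positive and 173 more negative genes. The call of a diet difference therefore depends on how the spread is estimated and on the chow monosome library 2. It is given below with this limit.

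Ribosomal protein messages made up a large part of the 121. Of 33 small subunit genes 15 and of 49 large subunit genes 24 were more positive in DDC and 0 more negative. Their medians were -1.09 and -1.06 in chow and 0.63 and 0.57 in DDC. Equal totals gave 25 and 31, the preparations as a block 9 and 16, and leaving out chow heavy polysome library 1 gave 1 and 3. Without chow heavy polysome library 2 the counts were 4 and 12, without DDC monosome library C 3 and 10, and without DDC heavy polysome library C 8 and 16. Leaving out the chow monosome library 1 gave 9 and 16. Rps3a1, the most positive of the genes of at least 100 FPKM, was at 404 and 299 FPKM on monosomes and 414 and 561 on heavy polysomes in DDC and at 1417 and 1418 against 308 and 296 in chow, a diet difference of 2.70 ± 0.36 SE (adjusted p = 0.0204). The chow fractions were far apart and the DDC fractions close together. Rpl5, which joins the 5S ribonucleoprotein, was at 94.0 and 80.0 against 99.6 and 169.7 FPKM in DDC and 313 and 317 against 79.9 and 91.6 in chow (2.45, adjusted p = 0.0226). Part of the DDC Rpl5 signal lay on a transcript annotated as a retained intron. That transcript was at 29.5 and 36.6 FPKM on monosomes and 0 and 61.3 on heavy polysomes. Rpl23, Rps23 and Rpl26 had diet differences of 2.37, 2.35 and 2.31, and 5 of 28 other TOP messages were called in this direction.

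Plasma protein messages lay mostly on the other side, with 6 of 60 tested in both diets more negative in DDC and 0 more positive, and medians of 1.57 in chow and 0.36 in DDC. Vtn (chromosome 11, 78499091 to 78502324), vitronectin, was at 4654 and 4904 FPKM on monosomes and 6652 and 6569 on heavy polysomes in DDC and at 1046 and 871 against 12410 and 9398 in chow (-3.03 ± 0.44 SE, adjusted p = 0.0204). Serpinc1, antithrombin, was at 1654 and 1349 against 2362 and 2480 in DDC and 531 and 394 against 5721 and 4094 in chow (-2.70, adjusted p = 0.0226). Both messages had more FPKM on DDC monosomes than on chow monosomes. Most of the DDC Serpinc1 signal lay on a 742-base transcript annotated as nonsense-mediated decay and not as protein-coding. That transcript was at 912 and 767 FPKM on monosomes and 1685 and 1416 on heavy polysomes. Slc22a18, a membrane carrier, Amy1, salivary-type amylase, and Tmem205 had diet differences of -2.99, -2.77 and -2.63. The count of 6 became 1 without chow heavy polysome library 1, 3 without chow heavy polysome library 2, 3 without DDC monosome library B and 11 without DDC heavy polysome library B. By limma 0 of 38 proteasome genes were called for the diet difference, with 11 at an unadjusted p under 0.05 and medians of 2.16 in chow and 1.89 in DDC. Of the stress messages 0 of 23 were called (5 unadjusted, medians -1.67 and -1.13) and of the macrophage markers 0 of 18 (5 unadjusted, medians 0.99 and 1.90).

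**Figure D5:**
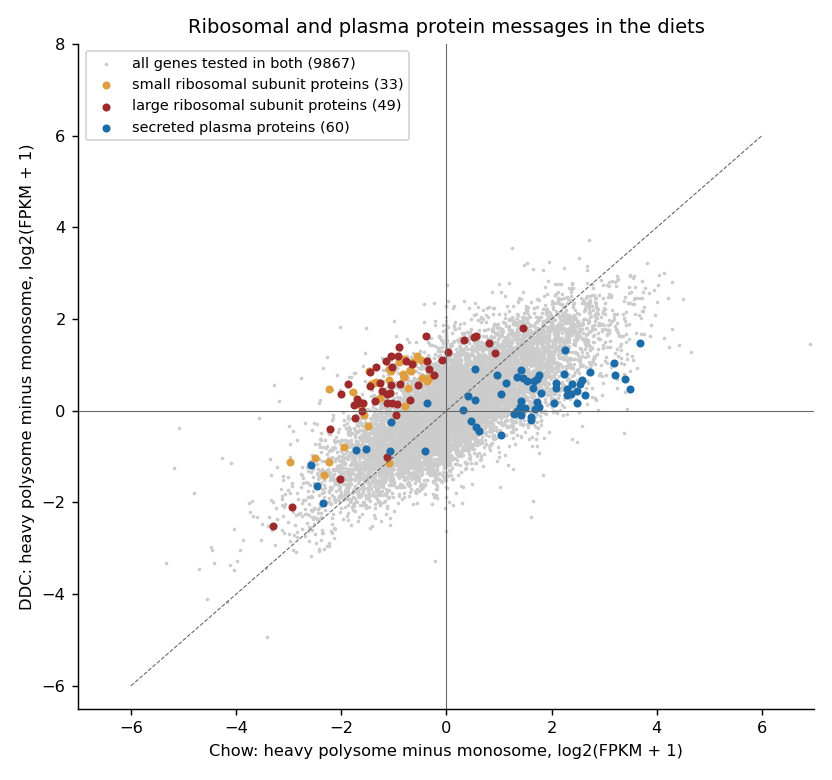
Heavy polysome minus monosome difference of each gene in chow (horizontal) and DDC (vertical), in log2(FPKM + 1), with the dashed line of equality. Ribosomal protein messages lie mostly above the line, with chow medians of -1.09 and -1.06, and most plasma protein messages below it, with a chow median of 1.57.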

How the data were processed

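The deposited values are FPKM per transcript, made by the authors. Per the submitters' processing notes STAR 2.4.2a and Cuffnorm were among the tools, beside bcl2fastq, Picard and Trimmomatic, and their options are not given in the sources used here. Of 117592 transcripts 116728 (99.27%) matched GENCODE M21 on GRCm38, the build the labels name, and FPKM were summed per gene. Genes at 0 in both libraries of a group and at 100 FPKM or more in another were set to missing there, a rule taken over from earlier work on these files, which removed 5 of the 9890 genes. The log2(FPKM + 1) values were fitted in limma (version 3.58.1, under R 4.3.3) by 8 means of diet and fraction over the 16 libraries, with 8 residual and 4.45 prior degrees of freedom. The main fit had no term for preparation. All groups shared 1 estimate of the spread. The standard deviation between replicates was 0.33 (chow) and 0.25 (DDC) in cytoplasm and 0.45 to 0.52 in monosomes and heavy polysomes. Cytoplasm thus lowers the shared spread, and SE and p-values may be too small. The fit was tested on simulated data, and p-values were adjusted with the Benjamini-Hochberg method over all genes tested, with a threshold of 0.05. Adding 1 before the log makes differences of low genes too small. Where leaving out a library left 1 in its group, that library was assumed to vary like the other groups. TMM factors were computed from the FPKM sums.

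Members and the 30 gene and 8 marker lists were chosen with earlier results of these data known, so no list is independent evidence. Named genes were the 10 largest rises and 10 largest falls with at least 100 FPKM in the higher group and no overlap, predicted genes left out; 20 fixed genes; from each list the 2 called members of lowest p in its main direction and the 1 of lowest p in the other; and the 5 most positive and 5 most negative diet differences. Others are said to be singled out or come from the lists. Numbers pair the libraries because the labels give fractions of 1 number the same preparation name: the difference between replicates correlated across genes by 0.343 between DDC monosomes and heavy polysomes, 0.393 between monosomes and light polysomes and 0.395 between light and heavy polysomes. Alternatives were other pseudocounts, filters, scalings, subsets of libraries, weights, a replicate block and leaving out each library.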

Additional observations from a re-analysis of the deposited data

Results flagged for a closer look

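The difference of heavy polysomes against monosomes differed between DDC and chow, by the limma test of the diet difference (Benjamini-Hochberg), in 15 of the genes named. It was more positive in DDC for Rps3a1 (2.70), Rpl5 (2.45), Rpl23 (2.37), Rps23 (2.35), Rpl26 (2.31), Rps7 (1.93), Rps13 (1.59) and Gas5 (2.02). It was more negative for H19 (-3.06), Vtn (-3.03), Slc22a18 (-2.99), Amy1 (-2.77), Serpinc1 (-2.70), Tmem205 (-2.63) and Alad (-1.66). H19 was at 0.355 and 0 FPKM on chow monosomes and 0 and 0 on chow heavy polysomes, so its diet difference sets a measured level against values near 0. Each of the 15 lost its call without the chow monosome library 2 and in the fit to the 8 libraries of these fractions alone.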

How the results depend on the processing

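The counts of the DDC comparison (2211 higher and 1658 lower) stayed within 1.5 times under 15 of 18 alternatives. They moved with equal library totals (1010 and 2943), with only the 4 compared libraries (1284 and 956) and, for lower genes, with a filter of 5 FPKM (894). Leaving out 1 DDC library gave 1672 to 1902 higher and 1216 to 1384 lower genes. The replicate block on the 12 fraction libraries gave 2395 and 1730, and the same libraries without it, chosen after seeing the data, 1858 and 1374. The median of all genes, 0.11, was -0.36 with equal totals, 0.034 with quantile normalization and -0.030 with TMM. The length correlation of -0.16 was -0.18 for 100 to under 1600 residues.

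For the diet difference (121 more positive, 130 more negative) a pseudocount of 5 gave 257 and 209 and protein-coding transcripts alone 161 and 259. The replicate block gave 90 and 173. Of these fits only the block kept both counts within 1.5 times. The 8 compared libraries, library weights, and the 12 fraction libraries without a block gave 0 and 0. Leaving out 1 library gave 0 to 140 and 0 to 221, the 0 without chow monosome library 2.

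Of 102 named genes tested in DDC, 73 kept their direction and side of the threshold in all alternatives run. Among the other genes of the 102, the sign turned in genes not called. It did for Eef1a1 with equal totals (-0.23), quantile normalization (-0.36) and over the fits that leave out 1 library (-0.23 to 0.97). Over those fits the sign also turned for Ftl1 (-0.75 to 0.16, positive without DDC heavy polysome library C), and, without DDC monosome library B, for Eef2 (-0.70 to 0.20), Lcn2 (-0.32 to 1.78) and Ly6d (-0.29 to 2.88). Of the genes named for their diet difference and not called in DDC, the sign of the DDC difference turned with equal totals and quantile normalization for Rps3a1 (-0.13, -0.38), Rpl5 (-0.012, -0.038), Rpl23 (-0.24, -0.39), Slc22a18 (-0.19, -0.38) and Amy1 (-0.11, -0.14), with equal totals for Vtn (-0.13) and with quantile normalization for Serpinc1 (-0.027). The cause of these changes was not tested. At 16.4 to 31.6 fragments per kilobase per FPKM, values near 1 FPKM rest on few fragments, which limits what differences they can show.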
